A study of Mus musculus with 6 samples.

Results

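The respiratory chain subunit genes were 98 of the 47643 annotated genes. Their symbols name a subunit, or a close relative of one, of the 5 complexes of oxidative phosphorylation. They were taken by a symbol pattern that uses no measured value, but the set was chosen with earlier results of these data known. Of these, 85 were nuclear (36 of complex I, 4 of complex II, 9 of complex III, 19 of complex IV and 17 of complex V) and 13 were mitochondrial (7, 0, 1, 3 and 2). The symbol pattern also took in Atp5s, a coupling factor that is not a structural subunit, Cox7a2l, a supercomplex factor, and Ndufa4, which is now assigned to complex IV and is counted here by its symbol. It left out Ndufab1, the acyl carrier protein of complex I, which is given with the related genes below.

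Mitochondria make most of a cell's ATP by this process. Complexes I and II pass electrons from NADH and succinate to ubiquinone, complex III passes them on to cytochrome c, complex IV reduces oxygen, and complex V, the ATP synthase, uses the proton gradient that complexes I, III and IV build. Most subunits are encoded in the nucleus and imported, while a few hydrophobic core subunits of complexes I, III, IV and V are encoded by the mitochondrial genome itself, so each of these 4 complexes is assembled from the products of both genomes. Mast cells are tissue-resident immune cells with large secretory granules, known for their part in allergy.

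RNA sequencing was done on sorted skin mast cells from 3 embryonic and 3 adult samples. All samples came from Cdh5CreERT2 mice, in which a tamoxifen-inducible Cre is driven by the Cdh5 promoter of endothelial cells, given 4-hydroxytamoxifen (4OHT) at day E7.5. The embryonic cells, described as derived from yolk sac haemogenic endothelium, were taken at day E16.5 and sorted as CD45+ F4/80- CD64- ckit+ ST2+. The adult cells, described as definitive, came from skin whose epidermis had been removed and were sorted as CD45+ F4/80- CD64- ckit+ Fcer1+, with no age in days given. Neither sort names a reporter of Cre activity. Age, described origin, sorting marker and tissue preparation therefore changed together between the groups and cannot be told apart. Nothing in the labels says whether the 3 libraries of a group came from separate animals, so the p-values speak only to how much the libraries varied, which can be technical variation.

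The libraries held 34122162 to 49813523 counts each, and 15111 genes passed the filter on low counts. Summed levels of 8 mast cell markers were 122118 to 133342 CPM (counts scaled to a common library size) in the embryonic libraries and 60337 to 62758 CPM in the adult libraries, with 5 of the 8 higher in embryonic and 2 in adult cells. Several other marker lists differed between the groups and thus moved with the results below, and their part in them was not tested. The 8 proliferation markers summed to 824 to 1005 CPM in the embryonic and 85.7 to 125 CPM in the adult libraries, and all 8 were higher in the embryonic cells. The 8 erythroid markers summed to 139 to 323 against 3.29 to 10.4 CPM (5 of the 5 tested higher in embryonic), and the 8 macrophage markers to 15.9 to 42.8 against 156 to 241 CPM (7 of 8 higher in adult). Keratinocyte markers reached 657 CPM in embryonic replicate 3 and 67.2 CPM in the lowest embryonic library, replicate 1, against 34.9 to 60.6 CPM in the adult libraries (3 of 8 higher in embryonic). Fibroblast markers summed to 574 to 715 against 96.9 to 528 CPM (1 of 8 higher in adult, the others not called). Melanocyte markers summed to 36.4 to 58 against 4.08 to 16.4 CPM (3 of 6 higher in embryonic), and endothelial markers to 27.1 to 36.6 against 4.52 to 10.8 CPM (3 of 8 higher in embryonic). Every gene of these 8 lists had counts in at least 1 library.

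Nearly all nuclear subunit genes were expressed at higher levels in the embryonic than in the adult mast cells. Of the 79 nuclear genes tested, 70 (88.6%) were higher in embryonic cells at an adjusted p under 0.05 (edgeR quasi-likelihood test, Benjamini-Hochberg adjustment over all 15111 genes) and 0 were higher in adult cells. Among all tested genes 31.2% were higher in embryonic cells and 31.7% in adult cells, and among tested genes with a mean of at least 10 CPM the first share was 38.5%. The median nuclear subunit was 1.91-fold higher in embryonic cells (log2 fold change 0.93, interquartile range 0.68 to 1.18), while the median over all tested genes was -0.02. Most of the 70 differences were of moderate size: 58 lay between 1.5- and 3-fold, 8 were smaller and 4 larger. At an unadjusted p under 0.05 the counts were 72 higher in embryonic and 1 in adult. The embryonic and adult libraries did not overlap for 70 nuclear genes that were higher in embryonic cells, and this held for 34.5% of all tested genes. In bulk samples, fewer cells of a type and less RNA per cell cannot be told apart.

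**Figure D1:**
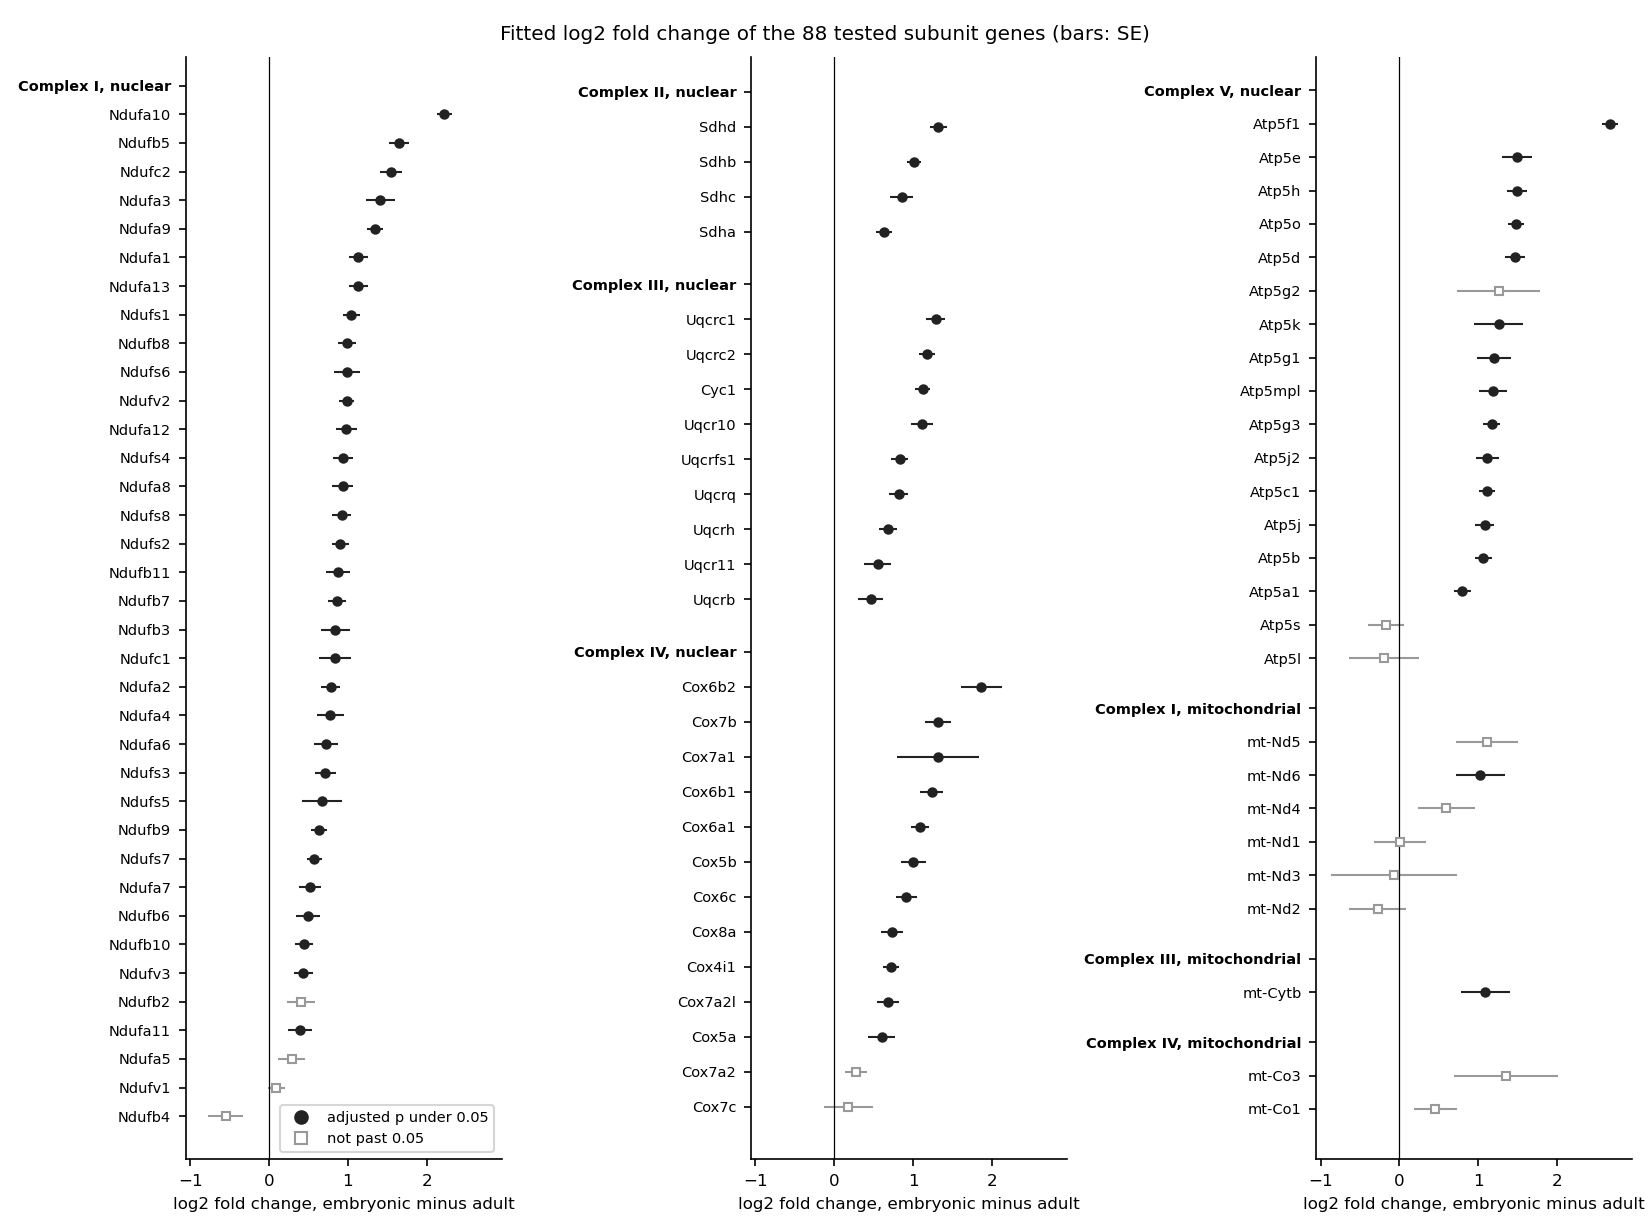
Fitted log2 fold change (embryonic minus adult) of the 88 tested subunit genes with its standard error, by complex and genome, ordered by size within each complex. Filled circles passed an adjusted p of 0.05 and open squares did not; 70 of 79 nuclear and 2 of 9 mitochondrial genes are filled, all to the right of 0.

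Summed over all nuclear members, the level was 9171, 8153 and 8343 CPM in embryonic replicates 1 to 3 and 4008, 3994 and 4180 CPM in adult replicates 1 to 3. Every embryonic library lay above every adult library, and the ratio of the means was 2.11. The same held for each complex. The ratio of mean summed levels was 1.89 for complex I, 1.84 for complex II, 2.12 for complex III, 1.83 for complex IV and 2.35 for complex V. Complex V took 48.0% to 49.6% of the nuclear subunit CPM in the embryonic and 42.9% to 44.1% in the adult libraries, so its share was higher in every embryonic library. The share of complex I was lower there, at 21.3% to 22.2% against 23.7% to 24.4%. A single gene, Atp5f1, held 800 of the mean 4173 CPM of complex V in embryonic cells and 126 of 1772 CPM in adult cells. Shares and ratios without Atp5f1 were not computed, so the higher share is not read as a shift of the whole complex. These sums are descriptions without a test.

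**Figure D2:**
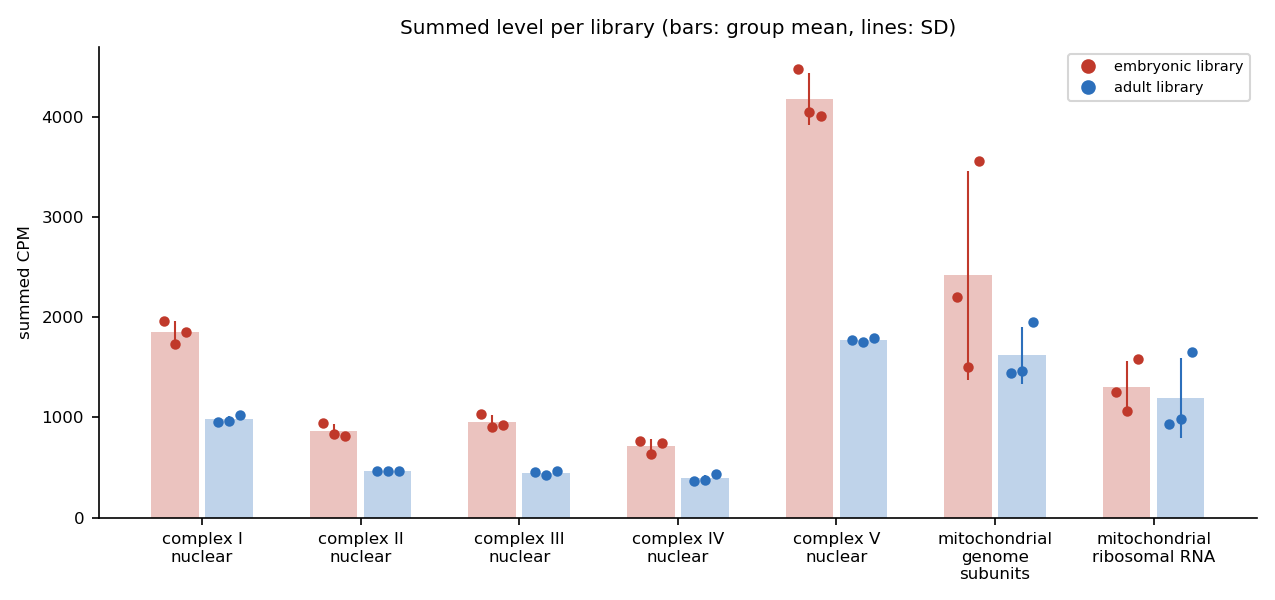
Summed CPM of the nuclear genes of each complex, of the mitochondrial-genome subunits and of the mitochondrial ribosomal RNAs, with bars at the group mean, vertical lines for the SD and points for the 3 libraries of each group. The groups are separate for all 5 nuclear sums and overlap for both mitochondrial sums, where embryonic replicate 3 reached 3554 CPM of subunit RNA. The genes from mt-Co2 to mt-Nd4l add few or no counts to the subunit sum.

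Complex I is the largest complex and the main entry of electrons from NADH. Of its 36 nuclear genes, all tested, 32 were higher in embryonic cells (median 1.81-fold). Its 7 nuclear core subunits bind the flavin and the iron-sulfur clusters, and 6 of them were higher, by up to 2.06-fold for Ndufs1. Among the 29 other nuclear genes, mostly accessory subunits, 26 were higher. The largest change was in Ndufa10 (ENSMUSG00000026260, chr1:92439010-92473860, mm10), an accessory subunit of the membrane arm. Its level was 168, 168 and 173 CPM in the embryonic libraries and 38.6, 34 and 36.6 CPM in the adult libraries. The libraries of each group lay close together and far from those of the other, a 4.66-fold difference (log2 fold change 2.22 ± 0.10 SE, adjusted p = 6.22e-08).

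Ndufb5, an accessory subunit of the membrane arm, was at 50.4, 46.1 and 52.5 CPM in embryonic and at 13.7, 16 and 17.8 CPM in adult libraries, without overlap (3.14-fold, log2 fold change 1.65 ± 0.13 SE, adjusted p = 2.88e-06). Of its exon bases, 12.3% are shared with Mrpl47. Ndufa9, an accessory subunit next to the quinone-binding region, was at 162, 154 and 143 CPM against 56.6, 59.3 and 64.9 CPM, again without overlap (2.54-fold, adjusted p = 2.13e-06). Ndufb9, which had the highest level per exon length of the nuclear complex I genes over all 6 libraries (293 TPM, counts scaled by exon length, in embryonic and 192 TPM in adult cells), differed by a smaller 1.55-fold (adjusted p = 0.000371).

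The 4 nuclear complex I genes that did not pass the test are named here after their values were seen. Ndufv1, the core subunit that carries the flavin and takes electrons from NADH, was at 110, 102 and 92.4 CPM in embryonic and 98.1, 86.1 and 103 CPM in adult libraries. The groups overlapped, and the fitted log2 fold change was 0.09 ± 0.11 SE (adjusted p = 0.496), beside 0.98 for Ndufv2, its partner in the same NADH-oxidising module. Ndufb2 and Ndufa5 had log2 fold changes of 0.40 and 0.29 (adjusted p = 0.0741 and 0.166). Ndufb4, an accessory subunit of the membrane arm, had the opposite sign. Its level was 3.5, 3.51 and 4.36 CPM in embryonic and 4.98, 6.0 and 5.68 CPM in adult libraries, so that every adult library was above every embryonic one, as for 35.5% of all tested genes. The log2 fold change was -0.55 ± 0.22 SE with an adjusted p of 0.0538. The adjusted p fell under 0.05 with upper-quartile scaling, with the filter on 1 CPM, with DESeq2 and with limma-voom, which each called 1 nuclear subunit higher in adult cells. A near-identical copy (at least 99% identity over at least 75 bases) in another annotated transcript, Ndufb4c, covers 40.2% of the Ndufb4 transcript, so reads from that stretch may not have been counted.

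Complex II is succinate dehydrogenase, the only complex with no subunit from the mitochondrial genome and also an enzyme of the tricarboxylic acid (TCA) cycle. All 4 of its genes were higher in embryonic cells. Sdhd, a membrane anchor, was at 241, 206 and 191 CPM against 85.3, 88.6 and 81.3 CPM (2.50-fold, adjusted p = 4.50e-06). Sdhb, the iron-sulfur subunit, was at 213, 207 and 215 CPM against 104, 101 and 110 CPM (2.02-fold, adjusted p = 6.58e-06). Sdha, the flavoprotein, was at 416, 369 and 349 CPM against 252, 242 and 239 CPM (1.55-fold, adjusted p = 0.000358). None of these 3 genes had overlapping groups. Sdhc, the other anchor, differed by 1.81-fold.

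Complex III, the cytochrome bc1 complex, had all 9 of its nuclear genes higher in embryonic cells, with a median of 1.78-fold. The larger differences were in 2 core proteins and cytochrome c1. Uqcrc1 was at 464, 412 and 376 CPM against 187, 157 and 169 CPM (2.44-fold, adjusted p = 7.22e-06). Uqcrc2 was at 134, 122 and 132 CPM against 52.7, 57.6 and 61.9 CPM (2.26-fold, adjusted p = 5.28e-06). Cyc1, which passes electrons to cytochrome c, was at 144, 127 and 130 CPM against 65, 58.4 and 61 CPM (2.18-fold, adjusted p = 6.03e-06). The groups were separate for all of them. The smallest differences were in the small subunits Uqcr11 (1.46-fold, adjusted p = 0.0171) and Uqcrb (1.38-fold, adjusted p = 0.0297), whose calls were lost in 2 and 4 of 15 refits.

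**Figure D3:**
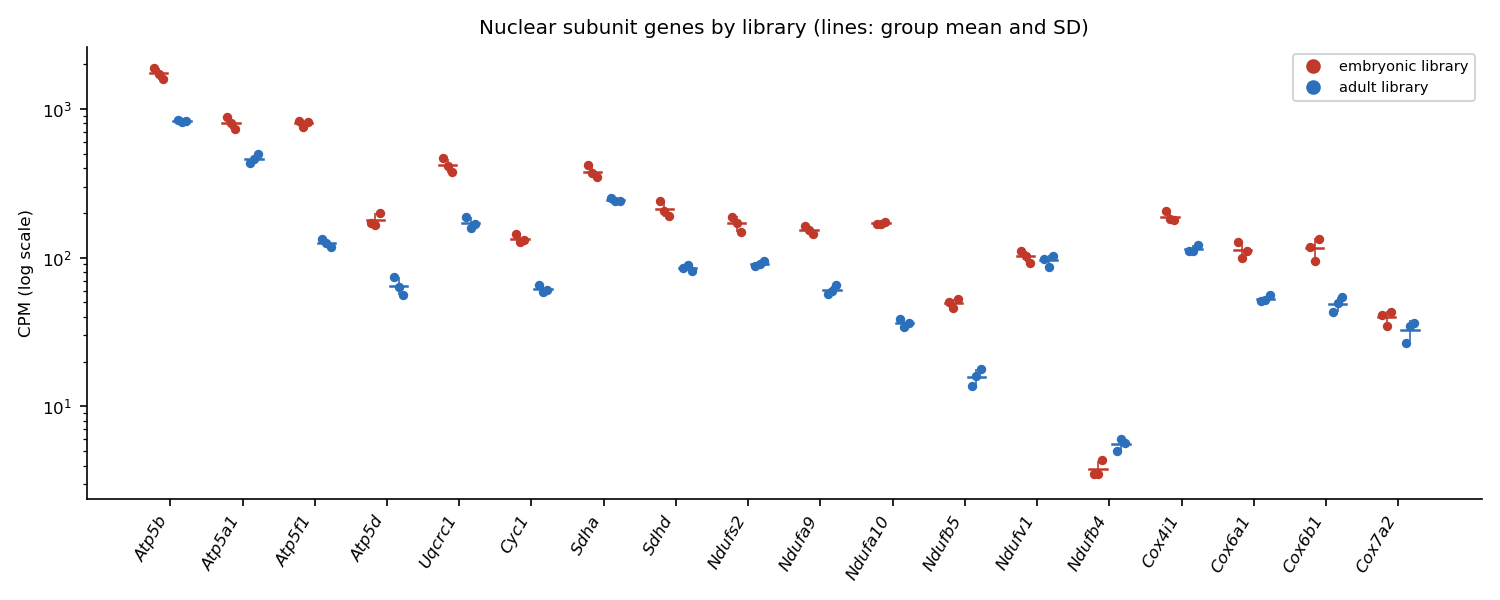
CPM on a log scale of 18 nuclear subunit genes in each of the 6 libraries, with the group mean and SD. The groups are separate for most genes shown, while Ndufv1 and Cox7a2 overlap and Ndufb4 is the one gene plotted with all adult libraries above the embryonic ones.

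Complex IV is cytochrome c oxidase, whose nuclear subunits surround a mitochondrial core, and several of which exist as tissue-specific isoforms. Of its 19 nuclear genes, 13 were tested and 11 were higher in embryonic cells (median 1.89-fold over the tested genes). Cox6a1 was at 128, 99 and 110 CPM against 50.8, 51.7 and 55.7 CPM (2.13-fold, adjusted p = 2.16e-05). Cox6b1, which faces the intermembrane space, was at 117, 94.4 and 134 CPM against 43.2, 49.4 and 54.4 CPM (2.36-fold, adjusted p = 4.47e-05). Cox7b was at 41.2, 35.7 and 50.5 CPM against 14.8, 16.2 and 20.2 CPM (2.49-fold, adjusted p = 7.16e-05). The 3 genes had no overlap between groups. The 2 tested genes that did not pass were Cox7a2 (39.6 ± 4.49 against 32.7 ± 5.19 CPM, SD, n = 3, adjusted p = 0.120 in edgeR) and Cox7c (log2 fold change 0.18 ± 0.32 SE), 32.9% of whose transcript has a near-identical copy elsewhere. The 6 untested genes were all isoforms or copies with few counts: Cox4i2 had 17 embryonic and 4 adult counts, Cox6a2 had 23 and 24, Cox6c2 had 4 and 1, Cox8b had 0 and 4, Cox8c had 0 and 2, and Cox7b2 had none. In any library, 3 counts, about the 95% upper confidence limit for a count of 0, stood for 0.0602 to 0.0879 CPM. These limits use the total counts of each library without further scaling.

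The isoform make-up was much the same in both groups, with the widely expressed form of each set dominant in every library. Counts per exon length gave Cox4i1 at least 99.8% of the Cox4 set in each library, and Cox6a1 at least 99.1% of the Cox6a set. Cox8a had at least 99.8% of the Cox8 set, and Cox7b had all counts of its set. The tissue-restricted forms were minor throughout. Cox6b2, the testis form, took 3.97% to 4.83% of the Cox6b set in embryonic and 2.13% to 3.42% in adult libraries. It rose 3.64-fold (9.32, 6.51 and 8.67 against 2.39, 1.68 and 2.66 CPM, adjusted p = 0.000151), so both its level and its share were higher in every embryonic library. Cox7a1, the heart and muscle form, took 2.34% to 3.57% of the Cox7a set against 0.650% to 2.27%. Its level was 0.923, 0.906 and 0.730 CPM against 0.442, 0.161 and 0.421 CPM, with a log2 fold change of 1.31 ± 0.52 SE and an adjusted p of 0.0498. That call was lost in 11 of the 14 refits that tested it. Summed striated muscle markers ranged over 5.92 to 8.10 CPM in embryonic libraries, against 2.13 to 37.4 CPM (1 of 7 tested higher in each group), and their part in the Cox7a1 level was not tested. The 3 genes for subunit c of the ATP synthase encode the same mature protein, and here Atp5g3 made up 97.5% to 98.1% of the set. Atp5g1 had 1.64% to 2.18% and Atp5g2 0.217% to 0.342%, each with overlapping ranges in the 2 groups.

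Complex V had the highest median difference of the 5 complexes, with 14 of 17 genes higher in embryonic cells and a median of 2.28-fold. All 5 subunits of its catalytic F1 part were higher. Atp5b, the catalytic beta subunit and the most highly expressed nuclear member per exon length (1284 TPM in embryonic and 621 TPM in adult cells), was at 1897, 1724 and 1577 CPM against 846, 816 and 825 CPM (2.09-fold, adjusted p = 1.31e-05). Atp5a1, the alpha subunit, was at 881, 799 and 731 CPM against 434, 457 and 494 CPM (1.74-fold), and every embryonic library was above the adult ones for both genes.

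The largest difference of any subunit gene was in Atp5f1 (ENSMUSG00000000563, chr3:105942698-105960099, mm10), which encodes subunit b of the peripheral stalk. Its level was 823, 760 and 818 CPM in embryonic and 134, 126 and 118 CPM in adult libraries. The groups were far apart, with a 6.35-fold difference (log2 fold change 2.67 ± 0.10 SE, adjusted p = 3.43e-08). The stalk subunits Atp5o (68.7 ± 2.81 against 24.6 ± 1.27 CPM, SD, n = 3, 2.80-fold, edgeR adjusted p = 1.12e-06) and Atp5h (41.6, 35 and 44.8 against 14.2, 15.0 and 14.0 CPM, 2.81-fold, adjusted p = 5.28e-06) differed by less. So did Atp5j, a further stalk subunit (62.5 ± 8.33 against 29.6 ± 1.94 CPM, SD, n = 3, 2.11-fold, edgeR adjusted p = 3.60e-05). Counts were made per gene, so transcripts of 1 gene are not told apart. For Atp5f1, 8.21% of the exon bases are shared with other genes, for Atp5o 44.0% are and for Atp5j 12.7% are. The 3 genes that did not pass were Atp5g2 (0.419 against 0.172 CPM, adjusted p = 0.0588), Atp5s (log2 fold change -0.17 ± 0.23 SE) and Atp5l (-0.20 ± 0.45 SE), which had less than 1 CPM in every library and a near-identical copy over 72.2% of its transcript. Leaving aside the 20 tested nuclear genes with at least 10% of bases copied or shared with another gene, 54 of the other 59 were higher in embryonic cells (median 1.92-fold).

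The promoters of these genes were examined because the nuclear members moved together. RefSeq promoter windows (250 bases before to 50 after the start site, GRCm38.p6) were found for 68 of the 85 nuclear genes and searched on both strands for GCGC and TGCGC with any 1 base between them, the motif of the factor NRF1, CCGGAAG, an ETS motif bound by GABPA among others, and AANATGGCG, a YY1 motif. NRF1 and GABPA are textbook regulators of nuclear respiratory genes. At least 1 of these motifs was in 54.4% of the member windows and in 15.9% of the windows of 27025 genes. These 27025 are all genes with a window and not only those tested here, so the contrast is not matched for expression. The shares were 25% against 5.19% for the NRF1 motif, 23.5% against 9.93% for the ETS motif and 14.7% against 2.76% for the YY1 motif. Among members with a window, the NRF1 motif was in 14 of 57 that were higher in embryonic cells and in 3 of 9 that were tested and not called. The ETS motif was in 15 of the 57 and 1 of the 9, and the YY1 motif in 10 of the 57 and 0 of the 9, and none of these splits was tested. None of the 3 motifs was in the windows of Atp5f1 and Ndufa10, the genes with the largest differences. The stretches below, from 10 bases before the first to at most 10 after the last motif, show 3 members with both an NRF1 and an ETS motif, in capitals. All are read 5′ to 3′ on the minus strand, that of the gene, from chr9:50603879-50603938 for Sdhd, chr5:115348959-115349130 for Cox6a1 and chr11:115419941-115420070 for Atp5h.
Sdhd: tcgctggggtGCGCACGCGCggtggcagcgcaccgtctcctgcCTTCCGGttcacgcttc
Cox6a1: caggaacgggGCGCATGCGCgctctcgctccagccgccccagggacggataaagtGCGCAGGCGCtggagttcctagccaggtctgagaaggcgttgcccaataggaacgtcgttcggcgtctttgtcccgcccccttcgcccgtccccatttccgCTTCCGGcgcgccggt
Atp5h: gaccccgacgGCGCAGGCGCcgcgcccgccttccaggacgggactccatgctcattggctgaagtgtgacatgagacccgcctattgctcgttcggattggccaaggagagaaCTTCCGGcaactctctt
Sdhd and Atp5h hold 1 NRF1 motif each, Cox6a1 holds 2, and in each the ETS motif lies nearest the start site. In these stretches the ETS motif reads CTTCCGG because it is on the other strand. The NRF1 motifs of Sdhd and Atp5h and the second of Cox6a1 are also matches on the other strand. They therefore read GCGCA and GCGC with any 1 base between them. The first NRF1 motif of Cox6a1 reads the same on both strands. A match is a description of the letters and does not show that a factor was bound.

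Of the factors that bind these motifs, Nrf1, Gabpa and Yy1 were examined, and none of these 3 genes was called higher in embryonic cells. Nrf1 was at 58.7, 62.9 and 59.8 CPM in embryonic and 65.3, 57.2 and 63.5 CPM in adult libraries, with overlapping groups (log2 fold change -0.04 ± 0.10 SE, adjusted p = 0.768). Gabpa had a log2 fold change of -0.26 ± 0.11 SE (adjusted p = 0.0603). Yy1 was lower in embryonic cells, by 0.53 on the log2 scale (adjusted p = 0.00607). These 3 genes were singled out because of the motifs, after their values were known.

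Few genes of the mitochondrial genome passed the test, and the difference from the nuclear genes was not itself tested. Of 13, 9 were tested, 2 (22.2%) were higher in embryonic cells and 0 in adult cells by edgeR, beside the 31.2% and 31.7% of all tested genes. At an unadjusted p under 0.05 the counts were 3 and 0, and DESeq2 gave 3 and 0. The libraries of 1 group scattered more widely than for nuclear genes. Summed subunit RNA of the mitochondrial genome was 2201, 1503 and 3554 CPM in embryonic replicates 1 to 3 and 1444, 1466 and 1949 CPM in adult replicates 1 to 3. The groups overlapped, and embryonic replicate 3 was the highest. That library also had the highest keratinocyte (657 CPM) and erythroid (323 CPM) marker sums, as well as the highest mast cell sum (133342 CPM). The part of these in its mitochondrial RNA was not tested. For every 100 CPM of nuclear subunit RNA there were 24.0, 18.4 and 42.6 CPM of mitochondrial subunit RNA in the embryonic and 36.0, 36.7 and 46.6 CPM in the adult libraries. Ribosomal RNA of the mitochondrial genome summed to 1301 ± 264 against 1190 ± 399 CPM (SD, n = 3), also with overlap. PolyA RNA was sequenced, and how fully this ribosomal RNA was captured was not tested. All genes of the mitochondrial genome together took 0.238% to 0.527% of a library's counts. The genes from mt-Co2 to mt-Nd4l had few or no counts, as described below. These sums, ratios and shares therefore do not cover all 13 subunit genes, and the 9 tested genes include mt-Co3 and mt-Nd3, which are among those with few counts.

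Several genes of the mitochondrial genome had few or no counts. A nuclear copy of part of the mitochondrial genome lies on chromosome 1, and per the file headers reads that matched more than 1 place were not counted. Over the annotated copies, mt-Co2 matches Gm28661 over 681 of its 684 bases with 0 differences, mt-Co3 matches Gm28437 over 783 bases with 0 differences and mt-Atp6 matches Gm10925 over 678 bases with 0 differences. mt-Nd3 matches Gm28438 over 345 bases with 1 difference, T3C (position counted from the first base of mt-Nd3, mt-Nd3 base first). The first 61 bases of mt-Nd3 (chrM:9459-9519, plus strand) and of its copy (chr1:24613059-24613119, minus strand), from the GENCODE M21 transcripts, differ only at the capital letter.
mt-Nd3: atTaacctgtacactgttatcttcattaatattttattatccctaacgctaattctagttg
copy on chromosome 1: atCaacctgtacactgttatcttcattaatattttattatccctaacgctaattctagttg
A read within the remaining aligned bases of this gene fits both places equally well. These copies had at most 20 counts in any library themselves. A near-identical copy covers 99% of mt-Nd4l, 63.6% of mt-Nd4 and 31.3% of mt-Co1. Of mt-Atp8 21.1% is shared with mt-Atp6, and reads that fell on both genes were not counted. The rest of mt-Atp8 lies between mt-Co2 and mt-Atp6, and copies were sought only in annotated transcripts. A copy of mt-Atp8 on chromosome 1, between Gm28661 and Gm10925 and outside annotated transcripts, would not have been found.

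The counts of the genes from mt-Co2 to mt-Nd4l are therefore not read here as RNA levels. Counts over the embryonic and adult libraries were 14 and 3 for mt-Co2, 26 and 6 for mt-Atp6, 1 and 3 for mt-Atp8 and 0 and 0 for mt-Nd4l, and these 4 genes were not tested. mt-Co3 (0.386 ± 0.139 against 0.149 ± 0.101 CPM, edgeR adjusted p = 0.10) and mt-Nd3 (0.233 ± 0.141 against 0.256 ± 0.237 CPM, edgeR adjusted p = 0.943, SD, n = 3) were tested and did not pass.

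**Figure D4:**
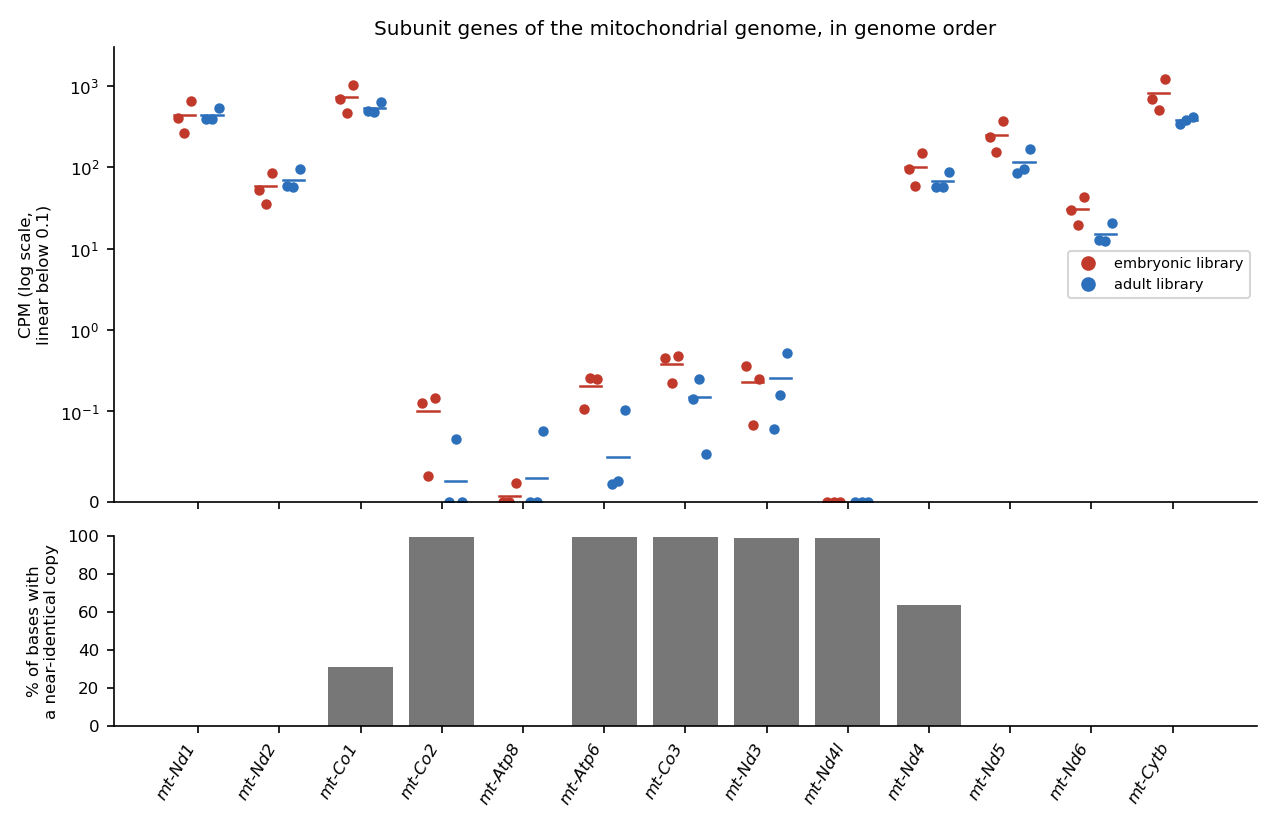
Top, CPM of the 13 mitochondrial-genome subunit genes by library, with group means as lines, on a log scale that is linear below 0.1. Bottom, the percentage of each gene's bases with a near-identical copy in another annotated transcript; the 5 genes with the highest bars have under 1 CPM in every library, and so does mt-Atp8, which has no such copy.

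The fitted changes of the genes with enough counts ran from -0.28 to 1.11 on the log2 scale, and differences between these genes were not tested. mt-Cytb, cytochrome b and the only complex III subunit of the mitochondrial genome (chrM:14145-15288), was at 695, 505 and 1218 CPM in embryonic and 342, 377 and 415 CPM in adult libraries. All embryonic libraries were above the adult ones (2.13-fold, log2 fold change 1.09 ± 0.31 SE, adjusted p = 0.0187). mt-Nd6, a complex I subunit on the other strand, was at 29.8, 19.6 and 43.2 CPM against 12.6, 12.5 and 20.5 CPM. The lowest embryonic library was below the highest adult one (2.03-fold, adjusted p = 0.0217), and since strand was not used in counting, antisense reads cannot be told apart from its own. How fully mt-Nd6 RNA was captured as polyA RNA was not tested either. mt-Nd5, its neighbour, was at 235, 154 and 366 CPM against 85.7, 96.0 and 168 CPM, with overlap (log2 fold change 1.11 ± 0.40 SE, adjusted p = 0.0506). The number of calls depended on single libraries: without adult replicate 1 or without adult replicate 2 the number of mitochondrial genes called was 0, while without embryonic replicate 2 it was 5.

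The remaining mitochondrial genes did not pass the test. mt-Nd1 was at 404, 265 and 656 CPM against 391, 393 and 537 CPM, with a log2 fold change of 0.00 ± 0.33 SE (adjusted p = 0.992). mt-Nd2 had -0.28 ± 0.36 SE (adjusted p = 0.534). mt-Nd4 had 0.59 ± 0.36 SE (adjusted p = 0.198). mt-Co1, the catalytic subunit of complex IV, was at 688, 464 and 1034 CPM against 496, 472 and 624 CPM, with 0.46 ± 0.28 SE (adjusted p = 0.189). For these 4 genes the embryonic libraries spanned the range of the adult ones or overlapped with it.

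Counts in 10 related gene lists are to be read beside the background of 31.2% (embryonic) and 31.7% (adult) of all tested genes, and nothing particular to a list is read from them. For complex I assembly, 8 of 16 tested genes (50%) had higher levels in embryonic cells and 1 (6.25%) in adult cells. Ndufaf1, an early assembly factor, was at 20.7 ± 0.809 against 5.90 ± 0.895 CPM (SD, n = 3, 3.51-fold, edgeR adjusted p = 6.62e-06), and Acad9 was 1.96-fold higher. Nubpl, which delivers iron-sulfur clusters, was lower in embryonic cells, with a log2 fold change of -0.71 and an adjusted p of 0.0204, a call lost in 2 of 15 refits. For complexes II and III, 7 of 10 (70%) had higher embryonic and 1 (10%) had higher adult levels. Uqcc1 was 1.87-fold higher in embryonic cells, Sdhaf1 5.77-fold (69.6% of its exon bases are shared with another gene), and Ttc19 was 1.66-fold higher in adult cells. For complex IV, 13 of 20 (65%) were higher in embryonic cells and the rest were not called. The smallest adjusted p in that list belonged to Cmc2 (22.1 ± 1.25 against 4.29 ± 0.773 CPM, SD, n = 3, 5.16-fold), followed by Coa3 (3.39-fold). For complex V, Atpaf2 and Tmem70 (2.02- and 2.13-fold) were higher in embryonic cells among 4 tested genes.

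The TCA cycle genes, which feed NADH and succinate to the chain, had 12 of 13 (92.3%) higher in embryonic cells, 1 not called and a median of 1.77-fold. Citrate synthase, Cs, was at 350, 299 and 301 CPM against 123, 127 and 124 CPM (2.54-fold, adjusted p = 2.11e-06). Suclg1, a subunit of succinyl-CoA ligase, differed by 2.62-fold (adjusted p = 1.94e-06), and neither gene had overlapping groups.

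Of the 21 genes for electron carriers and the quinone pathway, 10 (47.6%) had higher embryonic and 7 (33.3%) higher adult levels, the latter close to the share of all tested genes. Coq9 and Coq3 of ubiquinone synthesis were 2.57- and 3.46-fold higher in embryonic cells. Ndufab1, the complex I subunit left out by the symbol pattern, was at 13.4, 13.1 and 15.3 CPM against 7.32, 7.75 and 7.36 CPM (1.86-fold, adjusted p = 0.000494). Gpd2, which passes electrons from glycerol 3-phosphate directly to ubiquinone, was at 17.8, 18.3 and 16.7 CPM in embryonic and 64.3, 64.9 and 69.6 CPM in adult libraries. It was thus far higher in adult cells, by 3.78-fold (adjusted p = 2.44e-07). Coq10b, a ubiquinone-binding protein, was 3.45-fold higher in adult cells. Cycs, cytochrome c itself and named after its value was seen, was also higher in adult cells, at 2.19, 1.93 and 2.25 against 4.80, 4.15 and 3.63 CPM (adjusted p = 0.00849), and 30.3% of its transcript has near-identical copies elsewhere.

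For replication and transcription of the mitochondrial genome, 7 of 16 genes (43.8%) had higher embryonic and 3 (18.8%) higher adult levels, beside the 38.5% higher in embryonic cells among all tested genes of at least 10 CPM. Top1mt, the mitochondrial topoisomerase, was 3.57-fold and Polg, the polymerase, 1.52-fold higher in embryonic cells, while Mgme1 and Mterf3 were 1.55- and 1.37-fold higher in adult cells, and the Mterf3 call was lost in 4 of 15 refits. For mitochondrial RNA processing, 10 of 18 (55.6%) were higher in embryonic cells and the rest were not called. Fastkd3 of the FASTK family of mitochondrial RNA-binding proteins had the largest difference of all genes in these lists. It was at 348, 630 and 727 CPM in embryonic and 25.2, 32.8 and 33.3 CPM in adult libraries, an 18.7-fold difference with no overlap (adjusted p = 1.35e-05). Lrpprc, which stabilises mitochondrial mRNAs, was 2.56-fold higher in embryonic cells (adjusted p = 6.56e-06).

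Among 12 transcriptional regulators of the nuclear subunits, 2 (16.7%) had higher embryonic and 4 (33.3%) higher adult levels, the former below and the latter close to the share of all tested genes. Ppargc1b, a coactivator of mitochondrial genes, was at 9.08, 8.58 and 9.74 CPM against 3.62, 4.31 and 2.10 CPM (2.72-fold, adjusted p = 0.000954), and Hcfc1 differed by 1.31-fold. Myc was at 13.4, 18.7 and 29.6 CPM in embryonic and 126, 125 and 163 CPM in adult libraries. The adult level was 6.72 times the embryonic one (adjusted p = 0.000133), and Hif1a was 1.5-fold higher there. Of 18 import, chaperone and carrier genes, 10 (55.6%) had higher embryonic and 2 (11.1%) higher adult levels. Timm50 of the inner membrane import channel was 2.23-fold and the carrier Ucp2 1.77-fold higher in embryonic cells. Slc25a5, an ADP/ATP carrier, and Hspa9, the mitochondrial HSP70, were 1.28- and 1.26-fold higher in adult cells, and their calls were lost in 2 and 9 of 15 refits.

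**Figure D5:**
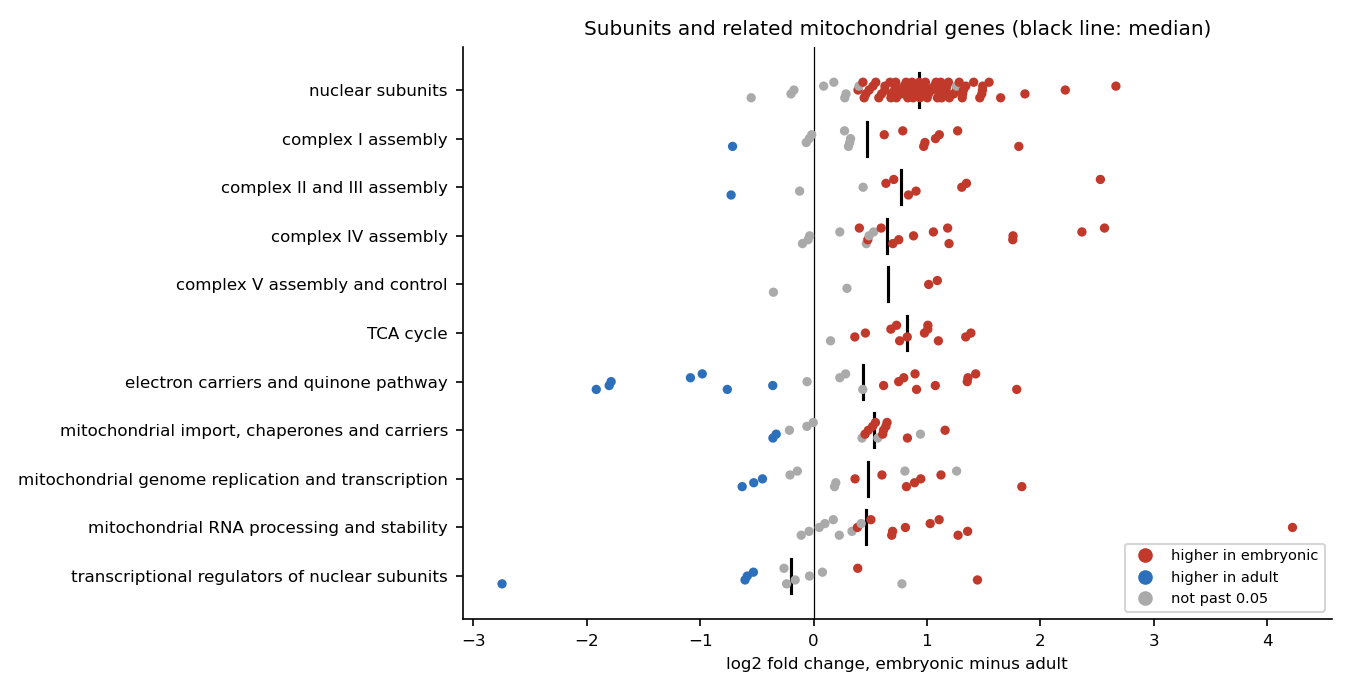
Log2 fold change (embryonic minus adult) of each tested nuclear subunit gene and of the tested genes of 10 related lists, coloured by call, with the list's median as a black line. The nuclear subunits have a median of 0.93 and the TCA cycle genes of 0.83, while the transcriptional regulators lie around 0 with a median of -0.20.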

How the data were processed

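PolyA RNA was measured by sequencing in 6 libraries, 3 from each group. Per the labels' protocols, full-length cDNA was made from 10 ng of total RNA with 10 cycles of PCR, cut by Tn5 and amplified for 12 more cycles. Per the file headers, the authors deposited read counts for each gene from featureCounts 1.5.0-p1 on GENCODE M9, without strand. Reads marked as duplicates, reads matching several places and reads on several genes were not counted. The submitters' processing notes name STAR, featureCounts and edgeR and the build GRCm38 (mm10). PCR copies can remain, so precision from counts covers counting error only.

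Symbols came from GENCODE M21, and 47224 of 47643 gene IDs matched. Counts were fitted with edgeR 4.0.16 in R 4.3.3 (filterByExpr at its default minimum of 10 counts, TMM scaling, robust quasi-likelihood test, no covariate). Genes were called at a Benjamini-Hochberg adjusted p under 0.05 over all tested genes. The biological coefficient of variation was 22.5%. CPM use TMM-scaled library sizes, and TPM divide by exon length. Alternatives used limma 3.58.1 and DESeq2 1.42.0. Copies were sought with blastn 2.17.0. The fit was first tested on simulated data.

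Named genes were all mitochondrial subunits, per complex the 3 smallest adjusted p in each direction and the highest TPM, all isoforms, 2 per direction in each related list, members whose call changed and all untested members. Others are marked in the text as named after their values were seen. The members and lists were chosen with earlier results of these data known. Ndufa4, Ndufv2, Ndufs1, Sdhc, Uqcr11, Uqcrb, Atp5a1 and Atp5j complete the account of their complexes and were also named with their values known. Of the genes in the lists, Coa1, Prorp, Atp5if1 and Sqrdl were not found under those symbols.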

Additional observations from a re-analysis of the deposited data

How the results depend on the processing

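The direction and the bulk of the nuclear result held under all alternatives run: 65 to 71 nuclear subunits were higher in embryonic cells when 1 library was left out, 69 with DESeq2, 71 with limma-voom, and 62 both at an adjusted p under 0.01 and with a further requirement of 1.5-fold. Of the 70 genes, 64 were called in all 15 refits, and Cox7a1, Ndufs5, Uqcrb, Ndufa11, Uqcr11 and Ndufb6 lost their call in some. The number of nuclear subunits, and of nuclear complex I subunits, higher in adult cells was 0, and became 1 (Ndufb4) with upper-quartile scaling, with a filter of 1 CPM in 3 libraries, with DESeq2 and with limma-voom. The number of mitochondrial-genome subunits higher in embryonic cells was 2, ranged from 0 (without adult replicate 1 or 2) to 5 (without embryonic replicate 2) when 1 library was left out, and was 0 at an adjusted p under 0.01. The log2 ratio of the summed nuclear subunits was 1.08 in CPM and 0.98 in TPM. The causes of these changes were not tested. No result reversed. Of 64 named genes, 52 changed no call. Replicate numbers recur in both groups, but same-numbered libraries did not deviate together (correlations of -0.11, -0.09 and -0.12 across genes), so the numbers are not read as pairs. With the replicate block, 67 nuclear and 4 mitochondrial subunits were higher in embryonic cells. Few counts limit the statements on the 6 untested Cox genes, each with 24 or fewer counts in either group.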

Other observations

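Ratios between mitochondrial genes within 1 library do not depend on the scaling between libraries, and those given here were chosen after the values were seen and were not tested. The ratio of mt-Nd5 to mt-Nd1 counts was 0.557 to 0.582 in the embryonic and 0.219 to 0.312 in the adult libraries. That of mt-Cytb to mt-Nd1 was 1.72 to 1.91 against 0.774 to 0.959, and that of mt-Nd6 to mt-Nd1 was 0.0658 to 0.0741 against 0.0319 to 0.0382. The ratio of mt-Cytb to mt-Co1 was 1.01 to 1.18 against 0.665 to 0.798. The groups were separate for these 4 ratios, although the level of each gene varied more than any of these ratios did among the embryonic libraries, where mt-Nd1 ran from 265 to 656 CPM. In genome order, mt-Nd5, mt-Nd6 and mt-Cytb lie at the end and mt-Nd1 and mt-Co1 nearer the ribosomal RNA genes. The ratio of mitochondrial ribosomal RNA to subunit counts was 0.446 to 0.706 in the embryonic and 0.648 to 0.847 in the adult libraries, with overlap. The ratios with ribosomal RNA and with mt-Nd6 depend on how fully these were captured as polyA RNA, which was not tested.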
